A study of Homo sapiens with 28 samples.

Results

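The MAP kinase cascade and protein kinase C genes were followed in Jurkat cells through the early hours after activation. They were every gene of the table whose symbol begins with MAPK, MAP2K, MAP3K, MAP4K or MAPKAPK and a number, or with PRKC and a letter. This gave 33 of 7485 genes, of which 30 encode kinases of the cascade or of the protein kinase C family. The other 3, MAPK1IP1L, PRKCQ-AS1 and PRKCSH, share only the name. The symbols alone set this choice, which was made with earlier results of these data known. Only genes of the deposited table could enter, where the lowest group mean was 1.08. All 33 passed the low-value filter, which removed no gene of the table.

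Activated cells had been given phorbol myristate acetate (PMA, 0.5 µg/ml) together with phytohaemagglutinin (PHA, 2 µg/ml) for 1, 2, 3 or 4 h, and unactivated cells were taken before the agents were added. All cells grew in RPMI1640 medium, and at each time both total RNA and RNA labelled with 4-thiouridine (4sU), a uridine analogue built into newly made transcripts, were sequenced. The 28 samples formed 10 groups, 14 samples for each kind of RNA, with 3 samples per group and 2 at 1 h. Jurkat is an established line grown from a human T cell leukaemia, so no primary T cells were studied.

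Protein kinase C (PKC) enzymes phosphorylate serine and threonine. The conventional kinds answer to calcium and diacylglycerol, the calcium-independent kinds to diacylglycerol alone and the atypical kinds to neither. PMA takes the place of diacylglycerol, and PHA cross-links surface receptors that include the T cell receptor. In T cells PKC signalling feeds the RAS pathway and, from there, a relay in which a MAP3K phosphorylates a MAP2K and the MAP2K phosphorylates a MAP kinase, with MAP4Ks acting above it. The main branches end in ERK, JNK and p38, and kinases named MAPKAPK lie below p38 and the atypical ERKs.

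Values are the authors' group means with their SD, on a normalised signal scale whose group sums lay between 913919 and 1037463. A change is the limma difference in log2(value + 1), given ± SE, and a gene is said to have risen or fallen where its p adjusted over all 7485 genes was under 0.05. Samples of a total RNA group varied by 6.37% to 11.2% of the mean for the median gene, and those of a labelled group by 10.4% to 18.2%, so labelled changes carry larger errors. The total RNA libraries at 1 h came out at 11052020 and 11179450 reads if the values are CPM, and depth is unknown for the others. Whether the counting used strand is not stated, so reads of genes that overlap on opposite strands cannot be told apart. This touches 10 of the 33: MAP2K1, MAP2K7, MAP3K1, MAP3K4, MAP4K5, MAPK7, MAPKAPK3, MAPKAPK5, PRKCH and PRKCSH. Of 15 T cell marker genes 10 were measured, among them CD3D and LCK, with a summed total RNA value of 2914 at 4 h against 2909 in unactivated cells. Of these 10, 4 rose and 4 fell at 4 h. None of 6 B cell markers, 2 of 9 myeloid markers and 1 of 8 fibroblast and epithelial markers were in the table.

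In total RNA, more of the 33 genes rose than fell from 2 h on. The number called grew with time, as it did over all genes, and most of the 33 were not called at any single hour. By limma 0 of the 33 changed at 1 h, where 3 had an unadjusted p under 0.05, all higher; 0.788% of all genes rose and 0.147% fell. At 2 h 5 rose and 0 fell (15.2% and 0%, with 1 lower at an unadjusted p under 0.05), against 9.71% of all genes that rose and 3.58% that fell. Counts at 3 h were 10 up and 2 down (30.3% and 6.06%), against 18.9% and 10.9% of all genes. At 4 h they were 11 up and 3 down (33.3% and 9.09%), against 21.4% and 14.5%. From 2 h the share of rises thus lay above that of the table and the share of falls below it, a difference that was not tested. Of all genes called at 1, 2, 3 and 4 h, 84.3%, 73.1%, 63.5% and 59.6% rose, against 69.6%, 50.2%, 48.6% and 51.0% with the group medians set equal. The members called at 2 h were then 3 up and 1 down. Their median change was 0.12, 0.14, 0.17 and 0.21 at 1, 2, 3 and 4 h, beside 0.07, 0.07, 0.04 and 0.02 over all genes. With the group medians set equal these medians of the 33 were 0.04, 0.05, 0.11 and 0.17. Among the 30 kinases alone, 9 rose and 3 fell at 4 h (30% and 10%), with a median change of 0.18. The 4 hours share their unactivated samples, so they are not separate lines of evidence. These are bulk samples, in which fewer cells carrying a transcript and less of it per cell cannot be told apart.

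Labelled RNA, which holds more of the newly made transcripts, likewise held more rises than falls, with falls from 2 h on. At 1 h 2 of the 33 rose and 0 fell by limma (1 lower at an unadjusted p under 0.05), against 4.2% and 2.06% of all genes. Of all genes called at 1 h 67.1% rose, against 55.6% with quantile normalisation. The counts were 6 up and 1 down at 2 h (12.3% and 9.26% of all genes), 7 up and 4 down at 3 h (13.8% and 11.4%) and 9 up and 3 down at 4 h (13.7% and 13.8%). The shares among the 33 were 18.2% up and 3.03% down at 2 h, 21.2% and 12.1% at 3 h and 27.3% and 9.09% at 4 h, with the share of falls at 3 h near that of the table. The genes are taken in turn by their place in the cascade.

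**Figure D1:**
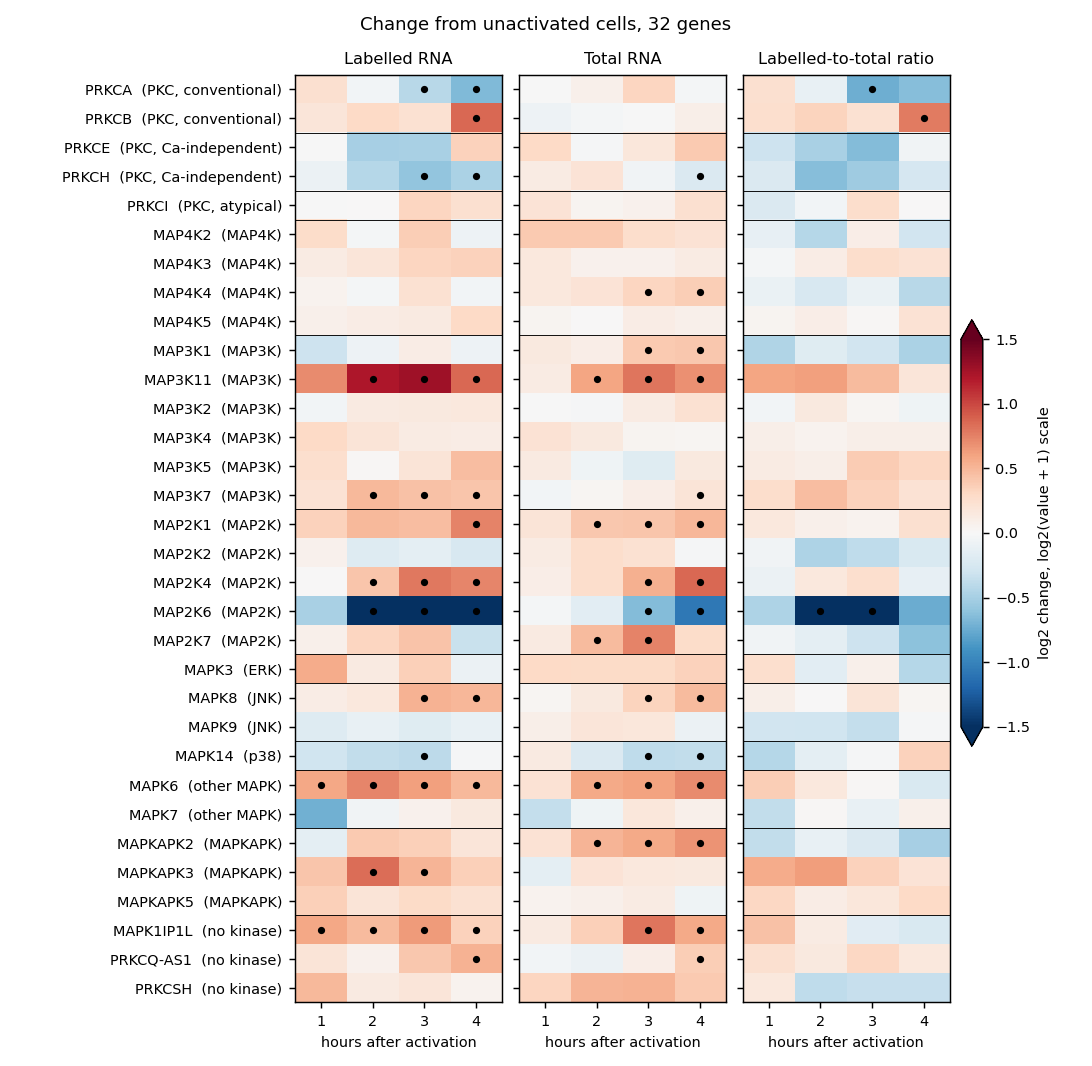
Log2 change from unactivated cells (colour, log2(value + 1) scale, cut at 1.5 in each direction) of 32 genes at 1, 2, 3 and 4 h, in labelled RNA, total RNA and the ratio of labelled to total RNA; dots mark an adjusted p under 0.05. MAP2K6 is the darkest blue line in both kinds of RNA, while MAP3K11, MAP2K4, MAPK6 and MAPK8 are red in both at 3 and 4 h.

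Genes of the MAP2K tier, which phosphorylates the MAP kinases themselves, moved in opposite directions. MAP2K6 (MKK6), a kinase that activates p38, fell, and MAP2K4 (MKK4), which activates JNK and p38, rose. In total RNA MAP2K6 stood at 33.9 ± 2.51 in unactivated cells and at 33.3 ± 3.55, 30.4 ± 3.84, 21.3 ± 2.19 and 15.6 ± 2.01 at 1, 2, 3 and 4 h. The ranges of mean ± SD at 3 and 4 h lay below that of unactivated cells and did not overlap it. The change was -0.65 ± 0.13 at 3 h (adjusted p = 0.000618) and -1.08 ± 0.13 at 4 h (adjusted p = 1.6e-06).

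Labelled MAP2K6 fell earlier and further. It stood at 31.5 ± 2.35 in unactivated cells and at 22.1 ± 0.486, 9.15 ± 3.33, 3.99 ± 1.09 and 8.22 ± 2.17 at 1, 2, 3 and 4 h. The lowest level was thus at 3 h, with a higher mean again at 4 h, still far below unactivated cells. Its labelled change was -1.68 ± 0.29 at 2 h, -2.70 ± 0.29 at 3 h and -1.82 ± 0.29 at 4 h, with adjusted p between 2.48e-10 and 1.65e-05.

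MAP2K4 ran the other way. Its total RNA stood at 63.5 ± 2.87 in unactivated cells and at 68.0 ± 6.45, 76.3 ± 3.63, 92.8 ± 5.73 and 116 ± 7.72 at 1, 2, 3 and 4 h. The change was 0.54 ± 0.09 at 3 h (adjusted p = 9.96e-05) and 0.86 ± 0.09 at 4 h (adjusted p = 2.65e-07), the largest rise among the 33 at 4 h. Labelled MAP2K4 was 96.8 ± 16.2 in unactivated cells and 97.1 ± 9.80, 129 ± 8.71, 168 ± 4.68 and 161 ± 0.544 at the 4 hours. It rose by 0.79 ± 0.15 at 3 h and by 0.73 ± 0.15 at 4 h, and by 0.42 ± 0.15 at 2 h, a call lost in a fit of the compared groups alone (adjusted p = 0.12). Reads that fit the pseudogene MAP2K4P1 as well could have been counted to either or left out. The same limit holds for MAP2K1 with MAP2K1P1 and for MAPKAPK5 with MAPKAPK5P1.

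MAP2K1 (MEK1), which activates ERK, also rose. Its total RNA was 50.4 ± 5.56 in unactivated cells and 57.5 ± 1.04, 66.8 ± 2.48, 67.5 ± 5.06 and 71.5 ± 7.99 at 1, 2, 3 and 4 h. The changes at 2, 3 and 4 h were 0.40, 0.41 and 0.50 (SE 0.10 each), although the call at 2 h was lost under both other scalings (adjusted p up to 0.0596). Labelled MAP2K1 was 28.0 ± 7.40 in unactivated cells and 36.0 ± 4.64, 39.5 ± 6.91, 39.1 ± 4.49 and 47.5 ± 6.02 at the 4 hours. Of these only the 4 h change was called, a rise of 0.74 ± 0.22 (adjusted p = 0.0103). MAP2K2 (MEK2), its close relative, was not called at any hour in either kind of RNA. Total MAP2K2 stood at 97.4 ± 5.02 at 4 h against 98.5 ± 5.82 in unactivated cells.

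MAP2K7 (MKK7), which activates JNK alone, rose in total RNA at 2 and 3 h. Total MAP2K7 was 13.8 ± 2.01 in unactivated cells and 15.3 ± 1.33, 19.5 ± 1.90, 23.8 ± 2.07 and 16.9 ± 1.83 at 1, 2, 3 and 4 h. It rose by 0.74 ± 0.13 at 3 h (adjusted p = 0.000253) and by 0.47 ± 0.13 at 2 h, where both other scalings lost the call (adjusted p up to 0.0765). At 4 h the change was 0.27 ± 0.13, which did not pass (adjusted p = 0.115). Labelled MAP2K7 was 9.72 ± 0.205 in unactivated cells and 10.3 ± 3.46, 12.4 ± 2.45, 13.5 ± 2.12 and 7.49 ± 0.315 at the 4 hours, and was not called at any of them.

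The start regions of 3 genes that moved in opposite directions are given as 300 bases each, from 250 before to 50 after the start, taken by symbol from the RefSeq table on GRCh38.p14. Capitals mark GGGCGG, the core of the Sp1 motif, or its reverse complement CCGCCC.
MAP2K6, chr17:69414447-69414746, plus strand: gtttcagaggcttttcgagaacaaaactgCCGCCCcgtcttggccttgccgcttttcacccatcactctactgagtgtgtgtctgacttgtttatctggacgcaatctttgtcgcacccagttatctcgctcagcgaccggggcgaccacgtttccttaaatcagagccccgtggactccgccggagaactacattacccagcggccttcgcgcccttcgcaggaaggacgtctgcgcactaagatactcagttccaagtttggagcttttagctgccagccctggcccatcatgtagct
MAP2K4, chr17:12020627-12020926, plus strand: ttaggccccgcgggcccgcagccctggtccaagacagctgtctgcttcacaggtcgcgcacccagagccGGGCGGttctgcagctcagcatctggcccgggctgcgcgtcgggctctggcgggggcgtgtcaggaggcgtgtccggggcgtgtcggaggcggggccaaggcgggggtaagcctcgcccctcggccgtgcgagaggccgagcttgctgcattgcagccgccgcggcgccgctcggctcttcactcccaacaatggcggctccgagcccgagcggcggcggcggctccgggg
MAPK8, chr10:48306427-48306726, plus strand: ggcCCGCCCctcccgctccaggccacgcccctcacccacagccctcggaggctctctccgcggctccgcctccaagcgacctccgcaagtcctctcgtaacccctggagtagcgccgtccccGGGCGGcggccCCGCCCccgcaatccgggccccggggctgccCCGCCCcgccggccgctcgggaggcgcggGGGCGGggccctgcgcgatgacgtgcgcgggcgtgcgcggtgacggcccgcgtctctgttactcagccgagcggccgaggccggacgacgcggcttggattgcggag
GC content was 55% in the MAP2K6 window, which holds 1 match, 74.7% in the MAP2K4 window, with 1 match, and 78.7% in the MAPK8 window, with 5. Of the 33 genes 29 were matched in the table, and 28 of these windows held GGGCGG on either strand, against 70.9% of 5843 genes measured here and 44.6% of all 27305 windows. The AP-1 motif TGANTCA and the cAMP response element TGACGTCA were in 0 of 29, against 3.97% and 3.88% of genes measured here. These letters are descriptions of the windows, overlaps between motifs were allowed, and no binding was measured.

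At the level of the MAP kinases, p38 alpha fell and JNK1 rose. MAPK14, the gene of p38 alpha, had total RNA of 118 ± 8.01 in unactivated cells and 129 ± 0.219, 101 ± 5.30, 90.1 ± 0.803 and 90.9 ± 2.69 at 1, 2, 3 and 4 h. It fell by 0.38 ± 0.08 at 3 h and by 0.37 ± 0.08 at 4 h on the log2 scale (adjusted p = 0.00101 and 0.00108). Labelled MAPK14 was 167 ± 8.75 in unactivated cells and 135 ± 14.8, 129 ± 16.9, 127 ± 16.0 and 164 ± 10.9 at the 4 hours. Its mean was lowest at 3 h. Only the change at 3 h, -0.39 ± 0.14, was called, and that call was lost in 2 of 6 alternatives (adjusted p up to 0.0723).

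MAPK8, the gene of JNK1, had total RNA of 93.3 ± 4.17 in unactivated cells and 95.2 ± 3.44, 103 ± 4.80, 118 ± 2.47 and 130 ± 5.67 at 1, 2, 3 and 4 h. It rose by 0.33 ± 0.08 at 3 h (adjusted p = 0.00285) and by 0.47 ± 0.08 at 4 h (adjusted p = 8.81e-05). Labelled MAPK8 was 118 ± 18.6 in unactivated cells and 127 ± 10.8, 131 ± 13.4, 170 ± 8.26 and 167 ± 8.37 at the 4 hours, a rise of 0.53 ± 0.14 at 3 h and of 0.50 ± 0.14 at 4 h. All 4 of these rises were called under each of the 6 alternatives. MAPK9, the gene of JNK2, was not called at any hour. Total MAPK9 was 38.9 ± 1.74 in unactivated cells and 41.5 ± 0.146, 44.4 ± 1.94, 43.9 ± 2.28 and 36.6 ± 0.920 at 1, 2, 3 and 4 h, and labelled MAPK9 was 35.6 ± 13.1 in unactivated cells and 31.0 ± 3.54, 33.0 ± 11.2, 31.2 ± 5.89 and 33.0 ± 0.110.

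MAPK3, the gene of ERK1, did not pass the test at any hour. Its total RNA was low, at 11.4 ± 3.05 in unactivated cells and 14.3 ± 1.96, 14.1 ± 1.31, 14.1 ± 2.00 and 14.7 ± 3.09 at 1, 2, 3 and 4 h. The 4 h change was 0.34 ± 0.18 (adjusted p = 0.143), and the 1 h mean amounted to about 159 reads per library by the scaled library sizes. Labelled MAPK3 was 5.89 ± 2.50 in unactivated cells and 9.12 ± 2.05, 6.54 ± 0.509, 7.81 ± 2.23 and 5.47 ± 0.725 at the 4 hours. MAPK7, the gene of ERK5, had the lowest total signal of the 33, at 2.36 ± 0.436 in unactivated cells and 1.62 ± 0.140, 2.22 ± 0.191, 2.79 ± 0.864 and 2.55 ± 0.555 at the 4 hours. By the scaled library sizes, about 18 reads per library stood behind its 1 h mean. Labelled MAPK7 was 7.52 ± 3.00 in unactivated cells and 4.16 ± 0.450, 7.24 ± 2.61, 7.90 ± 1.98 and 8.46 ± 2.73 at the 4 hours, and it was not called in either kind of RNA.

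MAPK6, which encodes the atypical kinase ERK3, rose early and in both kinds of RNA. Labelled MAPK6 was 217 ± 60.0 in unactivated cells and 326 ± 17.7, 361 ± 41.8, 334 ± 20.9 and 304 ± 24.1 at 1, 2, 3 and 4 h. Every activated group lay above unactivated cells without overlap of mean ± SD, with changes of 0.58, 0.73, 0.62 and 0.48. The calls at 1 h and 4 h were lost in 2 and 1 of 6 alternatives (adjusted p up to 0.116 and 0.0581). Total MAPK6 followed from 2 h, at 152 ± 12.1 in unactivated cells and 176 ± 4.11, 226 ± 0.579, 231 ± 21.4 and 250 ± 19.4 at the 4 hours. Its total changes at 2, 3 and 4 h were 0.57, 0.61 and 0.71 (SE 0.09 each), with adjusted p between 2.9e-06 and 0.000136. The annotation names 6 pseudogenes of MAPK6, whose reads cannot be told apart from its own here where the copies are alike.

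**Figure D2:**
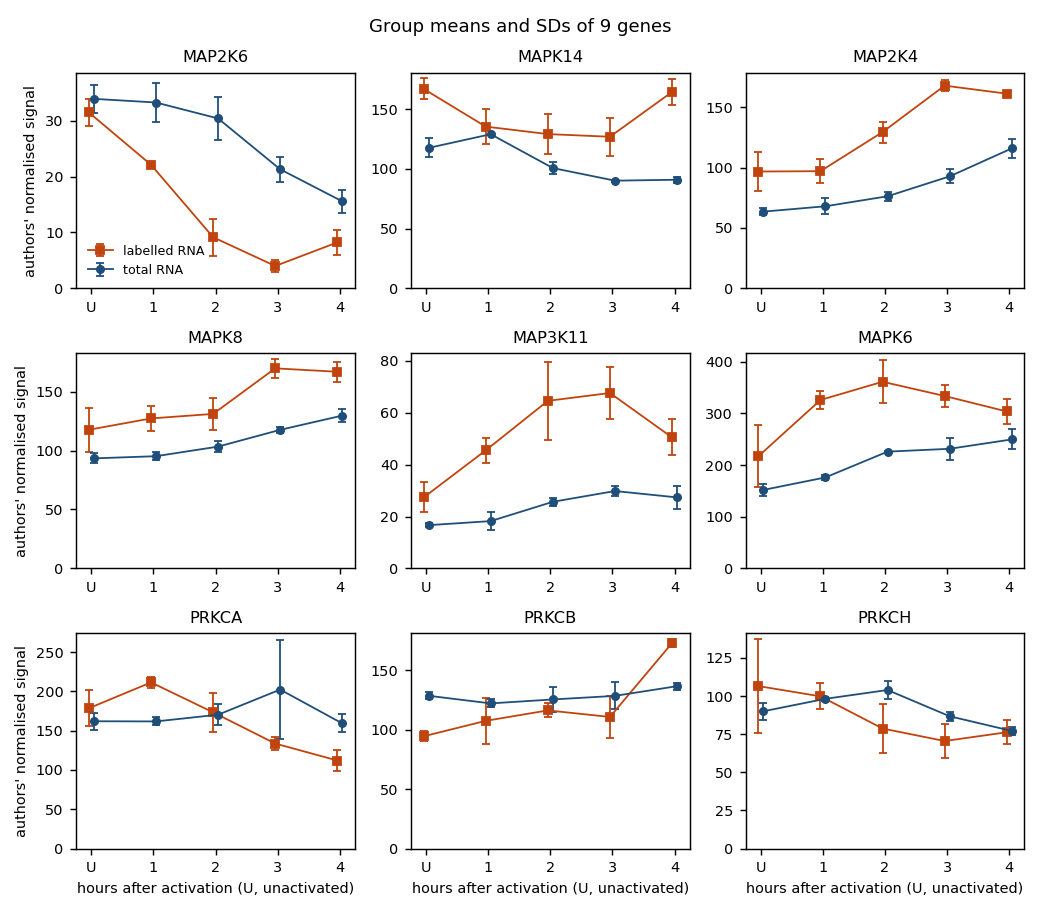
Authors' normalised signal (mean, bars SD, n = 3 and 2 at 1 h) of 9 genes in unactivated cells (U) and 1 to 4 h after activation, labelled RNA in orange and total RNA in blue, axes from 0. MAP2K6 falls to 15.6 in total and 8.22 in labelled RNA at 4 h, MAP2K4 and MAPK8 rise in both, and PRKCB is called in labelled RNA at 4 h alone.

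Among the MAP3Ks, which start the relay, MAP3K11 (MLK3, an activator of the JNK branch) moved most. Labelled MAP3K11 was 27.3 ± 5.77 in unactivated cells and 45.5 ± 4.93, 64.6 ± 15.1, 67.6 ± 10.2 and 50.5 ± 6.97 at 1, 2, 3 and 4 h. Its labelled rise was 1.21 ± 0.21 at 2 h, 1.27 ± 0.21 at 3 h and 0.86 ± 0.21 at 4 h (adjusted p at most 0.00161), the largest rise of the 33 at 2 and 3 h. At 1 h the change of 0.71 ± 0.23 just missed the threshold (adjusted p = 0.0553). Total MAP3K11 was 16.7 ± 0.900 in unactivated cells and 18.2 ± 3.39, 25.7 ± 1.52, 29.8 ± 1.85 and 27.4 ± 4.31 at the 4 hours, with rises of 0.59, 0.80 and 0.68 from 2 h on (SE 0.13 each).

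MAP3K1 (MEKK1), which acts on the JNK and ERK branches, rose in total RNA and was not called in labelled RNA. Total MAP3K1 stood at 37.2 ± 4.06 in unactivated cells and at 41.2 ± 1.45, 40.0 ± 3.75, 49.3 ± 0.875 and 49.5 ± 6.27 at 1, 2, 3 and 4 h. The changes were 0.39 ± 0.11 at 3 h and 0.40 ± 0.11 at 4 h (adjusted p = 0.0103 and 0.00768). Labelled MAP3K1 was 72.7 ± 30.5 in unactivated cells and 58.5 ± 1.32, 68.9 ± 10.6, 78.7 ± 12.7 and 68.9 ± 17.0 at the 4 hours, all within the spread of unactivated cells. Its labelled-to-total ratio did not pass at any hour. MAP3K7 (TAK1), which links receptor complexes to JNK, p38 and NF-kB, was called mainly in labelled RNA. The ratio of MAP3K7 did not pass at any hour either. Labelled MAP3K7 was 219 ± 7.02 at 4 h against 164 ± 2.78 in unactivated cells and rose by 0.48, 0.44 and 0.41 at 2, 3 and 4 h (SE 0.13 each). Total MAP3K7 was 194 ± 6.77 at 4 h against 169 ± 9.23, a rise of 0.20 ± 0.08 that was lost in 4 of 6 alternatives (adjusted p 0.0478, up to 0.276). MAP3K2, MAP3K4 and MAP3K5 were not called at any hour in either kind of RNA.

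Of the 4 MAP4Ks, upstream kinases of the JNK branch, only MAP4K4 was called. Its total RNA, the highest signal of the 33, was 614 ± 10.7 in unactivated cells and 683 ± 0.00124, 706 ± 33.5, 770 ± 61.2 and 796 ± 73.2 at 1, 2, 3 and 4 h. It rose by 0.33 ± 0.09 at 3 h, a call lost under quantile normalisation (adjusted p = 0.0926), and by 0.37 ± 0.09 at 4 h (adjusted p = 0.00207). Labelled MAP4K4 was 409 ± 41.0 in unactivated cells and 424 ± 4.49, 400 ± 23.9, 478 ± 15.1 and 399 ± 42.1 at the 4 hours and was not called. MAP4K2 had total RNA of 17.7 ± 2.49 in unactivated cells and 23.5 ± 2.48, 23.6 ± 3.12, 21.4 ± 1.36 and 20.6 ± 2.62 at the 4 hours, and its largest change, 0.40 ± 0.13 at 2 h, did not pass (adjusted p = 0.0557). In labelled RNA MAP4K2 stood at 9.51 ± 0.440 in unactivated cells and at 11.7 ± 0.552, 9.31 ± 1.07, 12.5 ± 3.02 and 8.97 ± 4.16 at the 4 hours and was not called either. MAP4K3 and MAP4K5 differed by at most 0.15 in total RNA and were not called.

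Below the MAP kinases, MAPKAPK2 (MK2), the p38 substrate that controls the stability of inflammatory mRNAs, rose in total RNA. It was 27.8 ± 4.90 in unactivated cells and 32.5 ± 3.06, 40.0 ± 4.08, 41.8 ± 6.23 and 45.1 ± 3.50 at 1, 2, 3 and 4 h. The changes were 0.51, 0.57 and 0.67 at 2, 3 and 4 h (SE 0.13 each), of which the 2 h call was lost under quantile normalisation (adjusted p = 0.0515). Labelled MAPKAPK2 was 20.7 ± 9.36 in unactivated cells and 18.5 ± 5.42, 27.4 ± 0.524, 26.7 ± 5.17 and 23.5 ± 7.32 at the 4 hours and did not pass at any of them. MAPKAPK3 (MK3), a close relative, was called in labelled RNA alone, at 50.1 ± 16.0 in unactivated cells and 67.2 ± 6.82, 90.2 ± 8.21, 71.6 ± 8.92 and 64.3 ± 10.5 at the 4 hours. Its labelled change was 0.84 ± 0.19 at 2 h (adjusted p = 0.00123) and 0.51 ± 0.19 at 3 h, the second lost in 2 of 6 alternatives (adjusted p up to 0.106). Total MAPKAPK3 was 99.4 ± 8.68 in unactivated cells and 89.8 ± 10.1, 115 ± 6.68, 111 ± 2.25 and 110 ± 8.78 at the 4 hours and was not called, nor was MAPKAPK5 in either kind. No MAPKAPK gene passed at any hour in its labelled-to-total ratio. Exons of MAPKAPK3 overlap those of CISH on the opposite strand.

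The protein kinase C genes in the table changed little in total RNA but diverged in labelled RNA. Other genes of the family, among them PRKCQ and PRKCD, were not in the table, so the family is covered only in part. Of the 5 measured, PRKCH, which fell at 4 h, was the only one called in total RNA. PRKCA, a conventional kind, had labelled RNA of 179 ± 23.2 in unactivated cells and 211 ± 7.08, 173 ± 25.0, 134 ± 8.80 and 112 ± 13.0 at 1, 2, 3 and 4 h. It fell by 0.67 ± 0.14 at 4 h (adjusted p = 0.000367) and by 0.42 ± 0.14 at 3 h on the log2 scale, the 3 h call being lost in 2 of 6 alternatives (adjusted p up to 0.0598). Total PRKCA was 162 ± 10.8 in unactivated cells and 162 ± 5.11, 170 ± 13.1, 202 ± 63.0 and 159 ± 11.5 at the 4 hours, with a change of -0.02 ± 0.15 at 4 h.

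PRKCB, the other conventional kind, went the opposite way. Labelled PRKCB was 94.5 ± 4.19 in unactivated cells and 108 ± 19.5, 116 ± 5.96, 111 ± 17.9 and 173 ± 3.65 at 1, 2, 3 and 4 h. The 4 h group stood apart from all others, with a rise of 0.87 ± 0.15 (adjusted p = 1.81e-05), beside 0.86 ± 0.21 for MAP3K11, the next largest labelled rise at that hour. Total PRKCB was 129 ± 2.84 in unactivated cells and 122 ± 3.40, 126 ± 10.2, 129 ± 11.3 and 137 ± 2.94 at the 4 hours, and the 4 h change of 0.09 ± 0.08 did not pass.

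PRKCH, a calcium-independent kind, fell in both at 4 h. Labelled PRKCH was 107 ± 30.6 in unactivated cells and 99.8 ± 8.61, 78.7 ± 16.1, 70.5 ± 11.2 and 76.3 ± 7.77 at the 4 hours. The changes of -0.59 ± 0.18 at 3 h and -0.48 ± 0.18 at 4 h were called but lost in 1 and 3 of 6 alternatives (adjusted p up to 0.0518 and 0.103), and the ranges of mean ± SD overlapped. Total PRKCH was 90.0 ± 5.74 in unactivated cells and 98.2 ± 1.18, 104 ± 5.64, 86.7 ± 2.82 and 77.1 ± 2.69 at the 4 hours. Only the 4 h change was called, where it fell by 0.22 ± 0.08 on the log2 scale, a call that a fit of those groups alone lost (adjusted p = 0.0507). Exons of other genes overlap PRKCH on both strands. 

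PRKCE, of the same kind, and the atypical PRKCI were not called in either kind of RNA. Total PRKCE was low, at 3.52 ± 0.791 in unactivated cells and 4.55 ± 0.864, 3.47 ± 0.441, 4.09 ± 1.03 and 4.94 ± 0.172 at 1, 2, 3 and 4 h, with a change of 0.40 ± 0.18 at 4 h (adjusted p = 0.103). Labelled PRKCE was 13.7 ± 3.89 in unactivated cells and 13.6 ± 4.97, 9.41 ± 0.621, 9.53 ± 1.57 and 17.7 ± 3.59 at the 4 hours, so its lowest means were at 2 and 3 h. Total PRKCI was 52.2 ± 9.25 in unactivated cells and 60.3 ± 0.338, 53.9 ± 4.73, 54.5 ± 2.21 and 61.6 ± 8.01, with a change of 0.24 ± 0.12 at 4 h (adjusted p = 0.133). Its labelled RNA was 64.4 ± 3.65 in unactivated cells and 64.0 ± 7.25, 64.5 ± 6.60, 81.1 ± 7.23 and 76.3 ± 11.3 at the 4 hours.

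The genes that share only the name also moved. MAPK1IP1L, a proline-rich protein, had labelled RNA of 140 ± 7.22 in unactivated cells and 209 ± 11.8, 195 ± 7.76, 218 ± 7.22 and 178 ± 0.981 at 1, 2, 3 and 4 h, called at every hour, with the 1 h and 4 h calls lost in a fit of the compared groups alone (adjusted p up to 0.118 at both). Its total RNA was 76.2 ± 6.79 in unactivated cells and 84.0 ± 7.72, 98.0 ± 9.64, 134 ± 43.5 and 114 ± 4.66 at the 4 hours, with rises of 0.80 ± 0.16 at 3 h and 0.57 ± 0.16 at 4 h. PRKCQ-AS1, an RNA named for its place antisense to PRKCQ, rose at 4 h to 46.8 ± 3.57 in total RNA against 36.1 ± 2.63 in unactivated cells, and to 95.2 ± 5.14 in labelled RNA against 65.8 ± 6.27. PRKCSH, a subunit of the glucosidase that trims glycans in the endoplasmic reticulum, had total RNA of 65.2 ± 6.89 in unactivated cells and 82.1 ± 29.7, 93.3 ± 19.3, 94.4 ± 26.9 and 86.3 ± 22.4 at the 4 hours, and the 4 h change did not pass (0.40 ± 0.23, adjusted p = 0.188). Labelled PRKCSH was 49.6 ± 19.9 in unactivated cells and 69.6 ± 5.76, 54.5 ± 14.6, 56.1 ± 3.55 and 51.3 ± 2.09 and was not called.

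Whether a gene moved more in labelled than in total RNA was tested as the change of the labelled-to-total ratio. Few genes of the table passed this test, 0.321%, 2.66%, 2.58% and 2.91% at 1, 2, 3 and 4 h. Of these 75%, 41.2%, 31.6% and 23.4% were higher, against 91.8%, 68.6%, 52.1% and 34.9% with the group medians set equal. Of the 33, 0 passed at 1 h by limma (3 higher and 1 lower at an unadjusted p under 0.05), 1 at 2 h, 2 at 3 h and 1 at 4 h. MAP2K6 fell in ratio by 1.53 ± 0.29 at 2 h (adjusted p = 0.00133) and by 2.06 ± 0.29 at 3 h (adjusted p = 2.05e-05). Its labelled RNA had fallen at 2 h, where its total RNA had not passed the test. At 4 h its ratio change was -0.74 ± 0.29 and did not pass (adjusted p = 0.174). PRKCA fell in ratio by 0.73 ± 0.20 at 3 h (adjusted p = 0.0385), a call lost in 3 of 6 alternatives (adjusted p up to 0.161). The PRKCA ratio change of -0.64 at 4 h did not pass. PRKCB rose in ratio by 0.78 ± 0.16 at 4 h (adjusted p = 0.00516) and was called under each alternative.

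**Figure D3:**
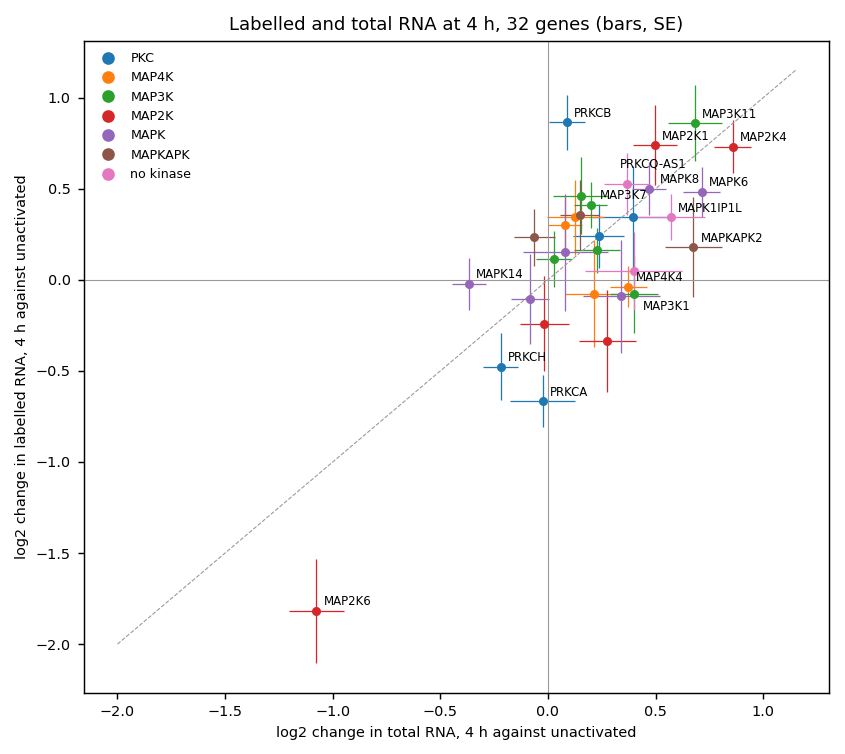
Log2 change at 4 h against unactivated cells in labelled RNA (vertical axis) and in total RNA (horizontal axis) for 32 genes, bars SE, with the dashed line marking equal changes; genes called in either kind of RNA are named. MAP2K6 lies far below and left at -1.82 and -1.08, PRKCB lies above the line at 0.87 and 0.09, and PRKCA lies below it at -0.67 and -0.02. Of these, only PRKCB passed the test of the labelled-to-total ratio at 4 h.

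Before activation, the cascade spanned a wide range of labelled-to-total ratios. The scaling of labelled against total values is not stated, so a ratio places a gene against other genes and is no absolute share of new RNA. Of the 33, 12 were higher and 9 lower in labelled than in total RNA (36.4% and 27.3%), against 40.6% and 26.9% of all genes, so these shares were near the background. With group medians set equal the split was 11 higher and 12 lower, and the median over all genes moved to -0.04, against 0.15 as deposited. Of all genes called there 60.1% were higher in labelled RNA, against 46.3% after that scaling. The highest log2 ratios were those of PRKCE (1.70 ± 0.23), MAP4K3 (1.38 ± 0.18), MAPK7 (1.34 ± 0.27) and MAP3K1 (0.95 ± 0.19). PRKCE had 13.7 ± 3.89 in labelled RNA against 3.52 ± 0.791 in total RNA. At the low end were MAP2K2 (-1.12 ± 0.23), MAPKAPK3 (-0.98 ± 0.15), MAPK3 (-0.85 ± 0.24), MAP4K2 (-0.83 ± 0.22) and MAP2K1 (-0.82 ± 0.16). MAP2K2 had 44.9 ± 19.1 in labelled RNA against 98.5 ± 5.82 in total RNA, so both MEK genes and MAPK3 (ERK1) lay on the same side.

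Levels can be compared between genes only per length, for which the authors' deposited table gives a mean total RPKM. It was highest for MAPK6 at 362, and other high levels were those of PRKCB at 229, MAP4K5 at 220 and MAP4K4 at 204. The lowest were MAPK7 at 3.20, PRKCE at 6.57, MAP3K1 at 8.13 and MAP3K5 at 9.60. The median of the 33 was 89.0 RPKM, against 54.5 over all genes of the table. Within a tier the range was wide: among the MAP2Ks MAP2K2 had 123 RPKM and MAP2K4 89.0, while MAP2K6 had 17.3 and MAP2K7 11.4. Among the MAP kinases MAPK3 had 13.6 RPKM, and MAPK8 at 119 exceeded MAPK9 at 24.6. The table gives no SD for RPKM, so neighbours in this order cannot be told apart. The gene lengths behind the RPKM are not stated either, and the order depends on them. MAPK6, PRKCB and MAP4K5 stood above MAP4K4 in RPKM, while their total signals in unactivated cells were 152, 129 and 126 against 614. Their top places thus rest on the lengths used, not on a higher signal. Whether the lengths used suit every gene was not tested.

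**Figure D4:**
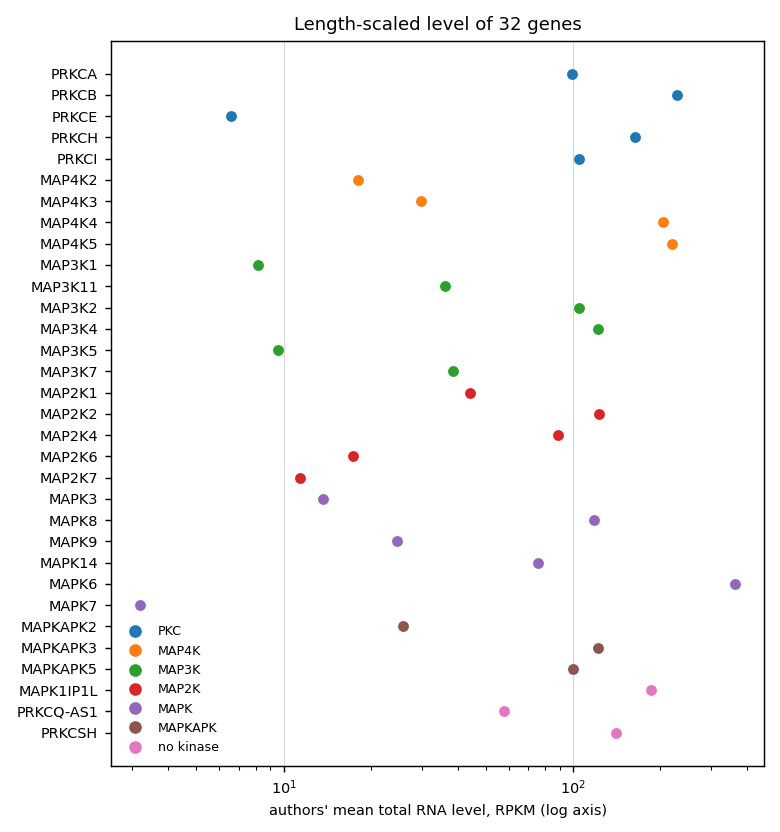
Authors' mean total RNA level in RPKM (horizontal log axis) of 32 genes, coloured by tier of the cascade; each point is 1 deposited mean, without error. Levels run from 3.20 for MAPK7 to 362 for MAPK6, and the MAP kinase tier holds both ends. The order depends on the gene lengths used, which are not stated.

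The authors' deposited table also gives a decay rate on a natural log scale, without a stated time unit, where a more negative value means faster loss. Each rate was recovered within 0.001 from the same group means, as the log of total RNA less 0.266 times labelled RNA, over total RNA of the hour before, so it adds no independent measurement. In the authors' deposited table the median rate in unactivated cells was -0.363 for the 32 of the 33 with a rate and -0.344 over all genes. Their T scores of the change from unactivated cells were largest for MAP4K4 (6.72 at 1 h, where its total RNA had an SD of 0.00124 over 2 samples) and MAPK14 (4.18 at 1 h), per the authors' deposited table. Next in size there came MAP3K7 (-3.45 at 2 h), MAP2K1 (3.14 at 2 h), MAP2K7 (3.13 at 2 h) and MAP4K2 (3.03 at 1 h). MAPK14 had -3.02 at 4 h. The deposited rate of MAPK14 was -0.474 in unactivated cells and -0.234, -0.665, -0.580 and -0.647 at 1, 2, 3 and 4 h in the authors' deposited table. For MAP2K7, whose total RNA was called at 2 and 3 h, the authors' deposited table has T scores of 3.13, 2.94 and -2.97 at 2, 3 and 4 h. For MAP2K6 the rates in the authors' deposited table were -0.283, -0.214, -0.173, -0.407 and -0.465 in unactivated cells and at 1, 2, 3 and 4 h, with T scores between -1.68 and 1.07. PRKCE has no rate for unactivated cells there.

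HuR, the RNA-binding protein encoded by ELAVL1 that the study's title names, was scored in the same deposited table, by means that its headers do not state. The authors' deposited table has a yes in its summary column for HuR for 2 of 23 scored members, MAP2K1 and PRKCI (8.70%, against 11.6% of 5017 genes scored). It lists 7 of 33 as iCLIP targets (21.2%, against 19.4% of all genes), among them MAP3K2, MAP4K4, MAPK1IP1L, MAPK9, MAPKAPK2 and PRKCI. Both shares were near the background. A further column, headed ELAVL1 3UTR, marks 17 of 32 members as targets (53.1%, against 61.0% of all genes with an entry). Per the authors' deposited table PRKCI had the highest LOD score of the members at 0 h, 0.27, and -1.43 at 4 h. The LOD score of MAPKAPK2 was -11.4 at 4 h against -2.54 at 0 h in the authors' deposited table. These 2 genes ran against the median of the 23 scored members, which was -10.1 at 0 h and -8.02 at 4 h there. So did MAP4K2 (-15.6 at 0 h and -22.4 at 4 h), PRKCSH (-12.0 and -16.4) and PRKCB (-5.90 and -5.95), per the authors' deposited table. Over all genes scored the median was -9.23 and -8.70. MAPKAPK3 went from -23.4 to -11.4.

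The genes around the kinases were read from 5 lists, chosen with results of these data known. At 4 h 21.4% of all genes rose and 14.5% fell in total RNA, and 13.7% rose and 13.8% fell in labelled RNA, with medians of 0.02 and -0.01. Of the 7 measured feedback inhibitors of MAP kinases, 4 rose and 3 were not called in total RNA at 4 h (57.1% up), with a median change of 0.76, and 3 rose in labelled RNA, with a median of 0.48. Those that rose in total RNA were the phosphatases DUSP5 (5.90 ± 0.14) and DUSP2 (3.41 ± 0.11) and the RAS pathway inhibitors SPRED1 (2.09 ± 0.12) and SPRY2 (0.76 ± 0.13). Of 21 makers and removers of diacylglycerol and partners of protein kinase C, 10 rose and 11 were not called in total RNA (47.6% up), with a median of 0.33. In labelled RNA 5 of them rose and 3 fell (23.8% and 14.3%), with a median of 0.08. The diacylglycerol kinases, which remove the lipid that activates PKC, led the rises in total RNA: DGKA by 1.24 ± 0.14, DGKH by 1.08 ± 0.14 and DGKD by 1.07 ± 0.11. MALT1, a protease subunit that works below PKC on the way to NF-kB, rose by 0.86 ± 0.10.

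Of 19 genes of RAS and RAF with their regulators, 7 rose, 1 fell and 11 were not called in total RNA at 4 h (36.8% and 5.26%), with a median of 0.23. In labelled RNA 7 rose and 3 fell (36.8% and 15.8%), with a median of 0.26. RASGRP1, the diacylglycerol-bound exchange factor that switches RAS on in T cells, was the member that fell in total RNA, to 53.7 ± 3.71 at 4 h against 149 ± 7.97 in unactivated cells (-1.45 ± 0.09, adjusted p = 2.16e-10). The GTPase RRAS2 rose to 84.8 ± 7.78 against 29.4 ± 4.61 (1.5 ± 0.12), the GTPase activator RASAL3 rose by 1.52 ± 0.20 and the MAP3K BRAF by 0.61 ± 0.11. Of 21 adaptors and scaffolds of the JNK and p38 branches, 7 rose, 2 fell and 12 were not called in total RNA (33.3% and 9.52%), with a median of 0.13. In labelled RNA 3 rose and 18 were not called (14.3% up), with a median of 0.09. In total RNA the scaffold ARRB1 rose by 1.29 ± 0.10, the kinase TNIK by 1.20 ± 0.11, the receptor adaptor TRAF3 by 1.09 ± 0.08 and the JNK scaffold SH3RF1 by 0.62 ± 0.13. Of 15 kinases and transcription factors that MAP kinases phosphorylate, 6 rose, 3 fell and 6 were not called in total RNA (40% and 20%), with a median of 0.29. In labelled RNA 1 rose and 3 fell (6.67% and 20%), with a median of 0.07. In total RNA JUNB, an AP-1 subunit, rose by 1.10 ± 0.13, the p38 and ERK target kinase RPS6KA5 (MSK1) by 0.81 ± 0.14 and the ERK target ELK1 by 0.66 ± 0.12, while ETS2 fell by 0.57 ± 0.08 on the log2 scale.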

How the data were processed

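Total and 4sU-labelled RNA of 28 Jurkat samples was sequenced. Per the submitters' processing notes, the authors used TopHat2, HTSeq and edgeR (no versions named) on hg19. The deposited table has, per the file headers, a group mean and SD of a normalised signal for 7485 genes, a mean RPKM, decay rates on a natural log scale with T scores and SDs, and HuR LOD scores. It gives group summaries rather than single samples, so the planned limma fit was run from them.

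Means were taken to log2(value + 1) and their SDs carried over to first order. Limma 3.58.1 in R 4.3.3 pooled variances over the 5 groups of 1 kind of RNA (9 degrees of freedom) or all 10 groups (18 degrees of freedom), with a trended, robust prior and Benjamini-Hochberg adjustment over all genes at 0.05. The step was tested on simulated data. Total and labelled values of 1 culture were treated as independent. The labels call samples biological replicates without naming separate cultures, so p-values measure the spread between these samples. The fold of low genes is understated on this scale.

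Single values of 1 member are not reported here, though counts and medians over the 33 hold it. Members and lists were chosen with earlier results of these data known. Values in every group are given for genes called in total RNA or in ratio at 2 or more hours and for the 2 genes of each role class with the largest change in total RNA at 4 h; others by counts, ranges or, where named, after their values were seen. Genes were matched by Ensembl ID to GENCODE 29 for overlaps (33 of 33) and by symbol to RefSeq start windows. Python 3.11.15, pandas 2.3.3 and matplotlib 3.10.9 were used.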

Additional observations from a re-analysis of the deposited data

Results flagged for a closer look

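The change after activation differed between labelled and total RNA for 3 genes, by a test of the difference itself. MAP2K6 had a ratio change of -1.53 at 2 h and -2.06 at 3 h against unactivated cells, with labelled RNA the lower (adjusted p = 0.00133 and 2.05e-05 by limma). PRKCA had a ratio change of -0.73 at 3 h (adjusted p = 0.0385 by limma), where its total RNA was widely spread, at 202 ± 63.0. That call was lost with the group medians set equal, in a fit of the compared groups alone and with a constant prior variance. PRKCB had a ratio change of 0.78 at 4 h (adjusted p = 0.00516 by limma).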

How the results depend on the processing

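Over the 12 comparisons of an hour with unactivated cells 67 changes of members were called. Of these 50 were called under every one of 6 alternatives, 17 were lost under at least 1, and 18 uncalled values were called under at least 1; no change turned its sign while called. In total RNA at 2 h 5 members were called, against 3 with quantile normalisation and 12 in a fit of the compared groups alone. In labelled RNA at 1 h the count of 2 became 0 in that fit and 1 with a constant prior variance, and at 3 h the count of 11 became 7 with the constant prior. For the ratio change, 1 call at 2 h became 2 with median centring and 4 with quantile normalisation. The 2 calls at 3 h became 1 under median centring, the fit of the compared groups alone and the constant prior, and 1 call at 4 h became 2 with quantile normalisation. The cause was not tested. Median centring moved the all-gene median ratio change to 0.08 and 0.05 at 1 and 2 h, against -0.03 and -0.06. A pseudocount of 5 and a mean of at least 10 lost none of the 67 calls. No paired analysis was possible because the table carries group means and SDs, without replicate letters; the replicate block and leaving out each replicate were therefore not run. By the scaled library sizes, 18 reads per library stood behind the 1 h total mean of MAPK7. What depth adds to the error of low genes was not tested.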
